A study of Danio rerio with 2 samples.

Results

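The miR-30 family was followed in the small RNA profiles of zebrafish embryos at 48 hpf. Its members were taken as every listed miRNA named miR-30 with any letter, which gave 5 of the 173 entries, namely miR-30a, miR-30b, miR-30c, miR-30d and miR-30e. miR-301 has another number and was not a member. The entries are named by hairpin and the miR-30e entry is the locus miR-30e-2, so the arm of the hairpin behind a value is not known here. None of the members joined several loci in 1 entry.

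The profiles came from 1 library of MO-Tbx5a injected embryos and 1 library of MO-Ct injected embryos, the latter carrying a control morpholino. Morpholinos are synthetic antisense molecules used to lower the protein made from a chosen transcript, and Tbx5 is the T-box transcription factor mutated in Holt-Oram syndrome, a disorder of heart and upper limb. Both groups were of the AB strain, were injected at the 1-cell stage with 1.5 ng of morpholino according to the sample labels, and each library held RNA pooled from 50 whole embryos. The study's own text adds a MO-Tbx5b morpholino at the same dose to the Tbx5 depleted embryos, which the labels do not name. By that text the control embryos received as much control morpholino as the depleted embryos received morpholino. The Tbx5 depleted embryos alone were selected by eye for the heartstring phenotype. Tbx5 depletion, phenotype selection and library preparation therefore cannot be told apart, and with no second library in either group no difference reported here was replicated.

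miRNAs are short RNAs that guide Argonaute proteins to messenger RNAs, mainly through pairing of the seed, the bases near their 5′ end. The miR-30 members share their seed and so are thought to recognise largely overlapping sets of messenger RNAs, while they differ in the bases outside it. In zebrafish the family is known to target smoothened, the Hedgehog signal transducer, during early muscle development, and miR-30a is known for its action on dll4, a Notch ligand, in sprouting vessels. In Xenopus the family is needed for formation of the pronephros, the embryonic kidney, and in mammals it is abundant in heart and kidney and targets connective tissue growth factor. Those findings are background, and neither targets nor tissues were measured here.

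The level of each miRNA is given as rpm, its reads relative to those assigned to all listed miRNAs, scaled to the same total in each library. Each of the 173 values was a whole number of reads within 0.005 rpm, for a total of 580312 reads in MO-Tbx5a and 1150157 in MO-Ct. One read was thus worth 1.72 rpm in the former and 0.869 rpm in the latter. These are the smallest totals that fitted, and whole multiples of them fit too. Some entries then had fewer reads than the 30 occurrences the study required of a sequence. miR-489 had 13 reads in MO-Tbx5a and 10 in MO-Ct, and miR-723 had 0 and 11. This conflict was not resolved, and all read numbers and interval widths given here rest on these totals. The 12 miRNAs chosen as markers of muscle, nervous system, epithelium and blood were all listed above 0 in both libraries, as a whole embryo should have them. Their summed level was 183475 rpm in MO-Tbx5a and 171961 rpm in MO-Ct for muscle, 193108 and 212031 rpm for nervous system, 12685 and 12075 rpm for epithelium, and 94.8 and 180 rpm for blood. The sums check presence only, and single markers carried the 2 largest. miR-9 had 191730 and 210670 rpm, and miR-206 had 154331 and 143278 rpm. Against the direction of their sums went miR-128, at 1065 and 902 rpm, and miR-133b and miR-133a, at 0.640 and 0.992 times their MO-Ct levels. So did miR-200b, at 0.884 times its MO-Ct level, and miR-144, at 19.0 and 16.5 rpm. The blood sum was carried by miR-451, at 75.8 and 163 rpm. The epithelium list held miR-203a but not miR-203b, and together these had 60688 and 51583 rpm. The part of tissue make-up in the miR-30 values was not tested, and in whole embryos fewer cells that hold a miRNA and less of it per cell cannot be told apart.

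As a whole the family was abundant. The 5 members summed to 36569 rpm in the MO-Ct library, from 42060 reads, and to 32300 rpm in the MO-Tbx5a library, from 18744 reads. This was 3.66% of all assigned reads in MO-Ct (95% Clopper-Pearson interval 3.62 to 3.69) and 3.23% in MO-Tbx5a (3.18 to 3.28). When all entries were summed by their number, 104 sums resulted, and miR-30 ranked 7 among them in MO-Ct and 8 in MO-Tbx5a. In MO-Ct it stood between miR-203, with 51583 rpm, and miR-184, with 36043 rpm. The order of miR-30 and miR-184 was the opposite in MO-Tbx5a, where miR-184, a miRNA of lens and other epithelia, had 36367 rpm. Only 3 of the sums held at least 5 entries, the number that miR-30 itself has, and miR-30 was the highest of these 3 in both libraries. Sums of fewer entries were higher in both libraries. miR-430, with 4 entries, had 117696 rpm in MO-Ct and 94444 rpm in MO-Tbx5a. For miR-10, also with 4 entries, the sums were 67550 and 58491 rpm, and miR-203, with 2 entries, was above miR-30 too.

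**Figure D1:**
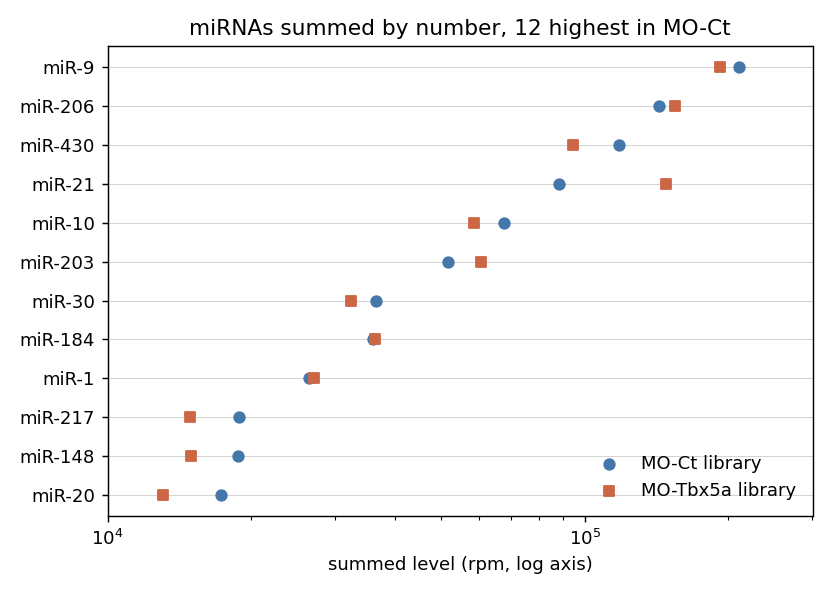
Summed level in rpm on a log axis for the 12 miRNA numbers with the highest sum in the MO-Ct library, circles for MO-Ct and squares for MO-Tbx5a, 1 library each. miR-30 lies at 36569 rpm in MO-Ct and 32300 rpm in MO-Tbx5a, beside miR-184.

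A pair of members made up most of the family. miR-30e was the highest, with 18950 rpm in the MO-Ct library and 16927 rpm in the MO-Tbx5a library, and it was the entry of rank 11 among all 173 in both. miR-30d was next, with 11138 rpm in MO-Ct and 10045 rpm in MO-Tbx5a. Together these members held 82.3% of the family reads in MO-Ct and 83.5% in MO-Tbx5a.

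The other 3 members were much lower. miR-30a, the member studied in zebrafish vessels, had 3169 rpm in MO-Ct and 2176 rpm in MO-Tbx5a, from 3645 and 1263 reads. miR-30c, which targets connective tissue growth factor in rodent heart cells, had 2849 rpm in MO-Ct and 2819 rpm in MO-Tbx5a, from 3277 and 1636 reads. miR-30b was the lowest, with 463 rpm in MO-Ct and 333 rpm in MO-Tbx5a, from 532 and 193 reads. The highest member thus had 41.0 times the level of the lowest in MO-Ct and 50.9 times in MO-Tbx5a. All 5 were above the 200 rpm that the study took as a minimum, in both libraries. Differences in level between miRNAs also depend on how well each is ligated and amplified in a small RNA library, and this was not measured.

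**Figure D2:**
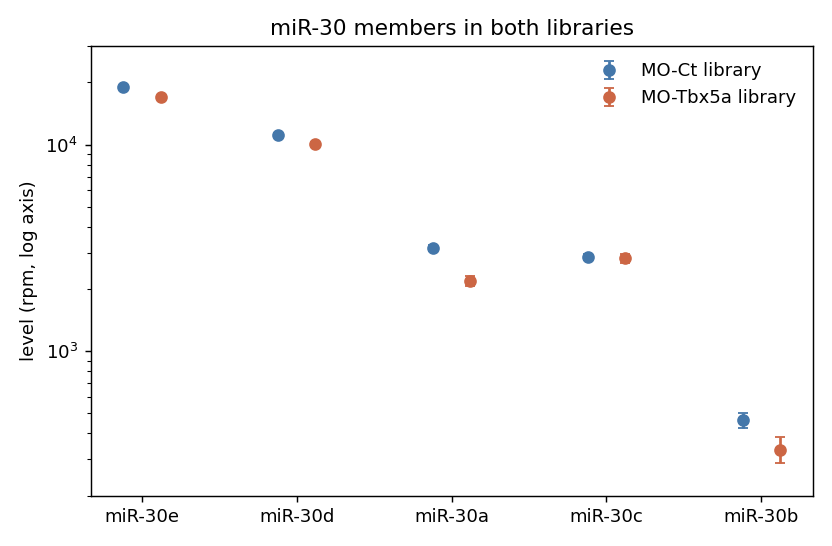
Level in rpm on a log axis for the 5 miR-30 members in the MO-Ct and the MO-Tbx5a library, 1 library each, with bars for the 95% Clopper-Pearson interval (counting error only, smaller than the symbol for the abundant members). In both libraries miR-30e and miR-30d stand highest, miR-30a and miR-30c lie between 2176 and 3169 rpm, and miR-30b lies lowest, at 463 and 333 rpm.

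Within each library, every member differed from the next in the order by more than counting error. In the MO-Ct library miR-30e had 1.70 times the level of miR-30d (95% interval 1.66 to 1.74), and miR-30d had 3.51 times that of miR-30a (3.39 to 3.65). The step from miR-30a to miR-30c was small, a ratio of 1.11 (1.06 to 1.17), and that from miR-30c to miR-30b was 6.16 (5.62 to 6.76). In the MO-Tbx5a library the step from miR-30e to miR-30d was 1.69 (1.63 to 1.74), close to that in MO-Ct. miR-30a and miR-30c, however, stood in the opposite order there. miR-30c followed miR-30d, which had 3.56 times its level (3.37 to 3.77), and miR-30c had 1.30 times the level of miR-30a (1.20 to 1.40). miR-30a in turn had 6.54 times the level of miR-30b (5.62 to 7.65).

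The same pattern showed in the shares of the family total. miR-30a took 8.67% of the family reads in MO-Ct (95% interval 8.40 to 8.94) and 6.74% in MO-Tbx5a (6.38 to 7.11), and these intervals did not overlap. miR-30c took 7.79% in MO-Ct (7.54 to 8.05) and 8.73% in MO-Tbx5a (8.33 to 9.14), again without overlap but in the other direction. The share of miR-30e was 51.8% in MO-Ct (51.3 to 52.3) and 52.4% in MO-Tbx5a (51.7 to 53.1). That of miR-30d was 30.5% (30.02 to 30.9) and 31.1% (30.4 to 31.8), so for both abundant members the intervals of the 2 libraries overlapped. miR-30b took 1.26% in MO-Ct (1.16 to 1.38) and 1.03% in MO-Tbx5a (0.890 to 1.18), with intervals that just overlapped. The direct ratio of its FC to that of the other members, given below, nevertheless had an interval below 1. A share is relative to the other members, and it does not depend on how the libraries are scaled to one another. Shares also differed between the libraries in another family. The highest miR-20 member held 81.7% of its family in MO-Ct and 77.0% in MO-Tbx5a, while that of miR-26 held 65.5% and 65.7%. How many families differed in this way was not counted.

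**Figure D3:**
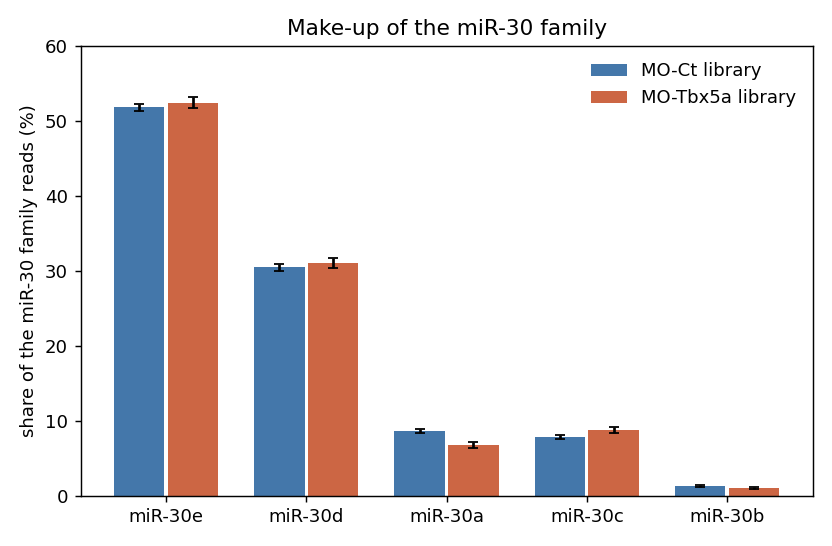
Share of the miR-30 family reads in percent for each member, with bars from 0 for the MO-Ct and the MO-Tbx5a library (1 library each) and 95% Clopper-Pearson intervals for counting error only. The shares of miR-30e and miR-30d are nearly equal between the libraries, that of miR-30a is 8.67% in MO-Ct and 6.74% in MO-Tbx5a, and that of miR-30c is 7.79% and 8.73%.

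The comparison of the libraries asks which miRNAs differ in level when Tbx5 is depleted. It was expressed as FC, the rpm of MO-Tbx5a divided by that of MO-Ct. The family total had a FC of 0.883 (95% interval 0.868 to 0.899, counting error only), or -0.18 on the log2 scale. The 107 miRNAs above 200 rpm in both libraries had a median FC of 0.910, or -0.14 on the log2 scale, and 71 of them (66.4%) had a FC below 1. Relative to that median the family total had 0.971 (0.954 to 0.988), and by a trimmed mean of log ratios it had 0.994. The lower total was thus close to the general shift between the libraries. The 3 most abundant miRNAs took 49.4% of the reads in MO-Tbx5a and 44.2% in MO-Ct, and their part in that shift was not tested.

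The members did not share a common FC. miR-30a had the lowest, 0.687 (95% interval 0.644 to 0.732), or -0.54 on the log2 scale, and 13 of the 107 miRNAs had a lower one. miR-30b had a FC of 0.719 (0.607 to 0.849), or -0.48 on the log2 scale, with 20 of the 107 below it. Its interval was the widest of the members because it rested on the fewest reads, and it overlapped that of miR-30a. miR-30e, at 0.893 (0.872 to 0.915), and miR-30d, at 0.902 (0.874 to 0.930), overlapped each other and lay near the median of all. miR-30c had a FC of 0.989 (0.932 to 1.05), and its interval included 1.

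**Figure D4:**
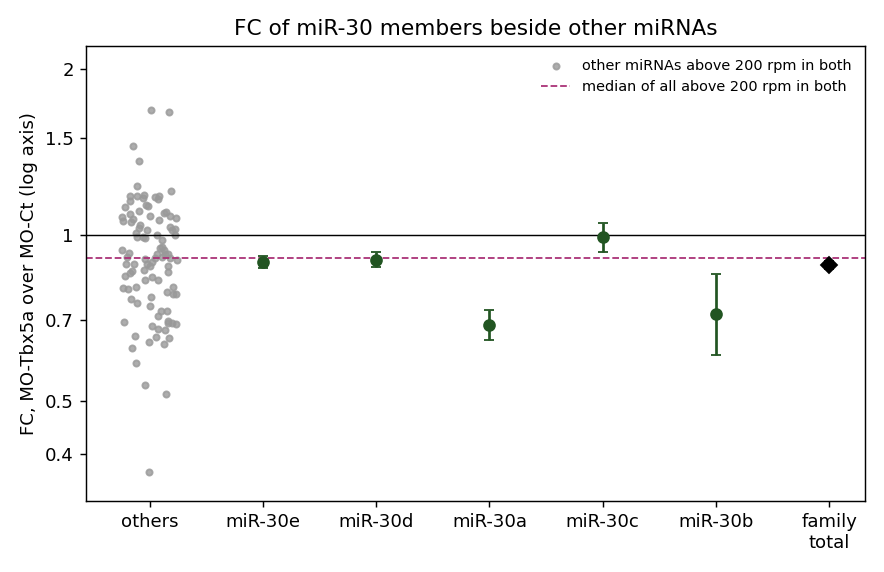
FC of rpm (MO-Tbx5a over MO-Ct, log axis) for each miR-30 member and for the family total, with 95% intervals for counting error only, beside the other miRNAs above 200 rpm in both libraries (grey, spread sideways at random). miR-30a at 0.687 and miR-30b at 0.719 lie below the dashed median of 0.910, miR-30e and miR-30d lie next to it, and miR-30c at 0.989 lies above it.

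None of the 5 members reached the 1.8-fold threshold of the study in either direction. Among the 107 miRNAs with more than 200 rpm in each library, 2.80% were at least 1.8-fold lower in MO-Tbx5a and 0% at least 1.8-fold higher. The requirement of 200 rpm in each library was set here, and the study itself listed more miRNAs in both directions than this rule gives. At 1.5-fold again 0 members passed, and 9.35% of the 107 miRNAs were lower and 1.87% higher by that much. The counting interval lay below 1 for 4 members, all except miR-30c, and above 1 for 0. The same held for 49.5% and 21.5% of the 107 miRNAs, so an interval below 1 was common among them and is not particular to the family. The 107 were not matched to the members in level, on which the width of an interval depends.

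Scaled to the median FC of the 107 miRNAs, miR-30a had 0.755 (0.707 to 0.805) and miR-30b had 0.790 (0.667 to 0.933). Both were thus below 1 beyond counting error on that scale too. For miR-30b this did not hold when it was centred on miRNAs of similar level, as given in the last section. miR-30e had 0.982 (0.958 to 1.01) and miR-30d had 0.991 (0.961 to 1.02) on that scale, with intervals that included 1, and with the trimmed mean of log ratios both lay just above 1, at 1.01 and 1.02. miR-30c had 1.09 (1.02 to 1.15) relative to the median, so the side of 1 on which it fell depended on the scaling.

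The differences among members do not change under a scaling that applies a common factor to all miRNAs. Centring each member on miRNAs of similar level uses a factor of its own for each, and so can change them. Set against the other members together, miR-30a had 0.761 times their FC (95% interval 0.712 to 0.814) and miR-30b 0.812 times (0.685 to 0.960). miR-30c had 1.13 times the FC of the others (1.06 to 1.20). For miR-30e the ratio was 1.02 (0.989 to 1.06) and for miR-30d 1.03 (0.993 to 1.07), and both intervals included 1. Of the 10 pairs of members, FC intervals overlapped only for miR-30e with miR-30d and for miR-30a with miR-30b. The share of such pairs among the 107 miRNAs was not counted. The FC of these 107 had quartiles of 0.775 and 1.06, so a spread in FC between miRNAs is not particular to the family. The annotation allowed 2 mismatches, so reads of members with similar sequences could have been divided between their names, and this was not tested.

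The absolute difference in the family total was 4269 rpm, higher in MO-Ct. miR-30e accounted for 2022 rpm of it (47.4%), miR-30d for 1094 rpm (25.6%) and miR-30a for 993 rpm (23.3%), although miR-30a held less than 10% of the family reads in either library. miR-30b contributed 130 rpm (3.04%) and miR-30c 30.01 rpm (0.703%). These parts hold for the deposited scaling only. Scaled to the median FC of the 107 miRNAs, miR-30e had 0.982 and miR-30d 0.991, while miR-30a had 0.755 and miR-30c 1.09. The parts of the difference would thus change with the scaling, and they were not computed on that scale.

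All 5 members matched 1 gene each in the gene table that RefSeq gives for the GRCz12tu assembly, on 3 chromosomes. miR-30d and miR-30b lie next to each other, with 0 genes starting between them, inside the span of zfat, a gene for a zinc finger protein, and of an uncharacterised long non-coding RNA gene. miR-30e-2 and miR-30c lie on another chromosome between asrgl1 and ogfrl1. Between these starts only 1 gene, a long non-coding RNA gene whose span holds miR-30c but not miR-30e-2. miR-30a shares its chromosome with none of the other members, and lies inside the span of an uncharacterised protein-coding gene and between khdrbs3 and st3gal1l2. Only the 5 members were looked up, so miR-30 genes without an entry of their own were not examined. The table gives no strand, so whether a member is read from the same transcript as the gene around it was not examined.

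Neighbouring members were not at equal levels. miR-30d had 24.1 times the level of its neighbour miR-30b in MO-Ct (95% interval 22.1 to 26.3) and 30.2 times in MO-Tbx5a (26.2 to 35.0). miR-30e had 6.65 times the level of miR-30c in MO-Ct (6.41 to 6.90) and 6.004 times in MO-Tbx5a (5.70 to 6.33). In each pair the member with the larger level kept its place in both libraries, while the ratio of miR-30e over miR-30c was smaller in MO-Tbx5a beyond counting error. The ratio of miR-30d over miR-30b was larger there. Its intervals in the libraries just overlapped, while the FC intervals of miR-30d and miR-30b did not. Summed by locus, miR-30d with miR-30b had a FC of 0.895 (0.868 to 0.922) and miR-30e with miR-30c had 0.906 (0.886 to 0.926), with overlapping intervals. The FC of miR-30a, which has no neighbour among the members, was 0.687 and lay below both. Each sum consists mostly of its more abundant member. miR-30a does not stand apart from every paired member, since the FC interval of miR-30b overlapped its own.

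The miR-30 total was set beside those of let-7, miR-125 and miR-26, and it was higher than each of these in both libraries. The 7 let-7 entries, a family that rises as cells differentiate, summed to 6348 rpm in MO-Ct and 6464 rpm in MO-Tbx5a, a FC of 1.02 (0.979 to 1.06). The 3 miR-125 entries, relatives of the lin-4 miRNA of worms, summed to 3633 and 4324 rpm, a FC of 1.19 (1.13 to 1.25). The 2 miR-26 entries summed to 1713 and 1191 rpm, a FC of 0.695 (0.637 to 0.759). The FC interval of the miR-30 total overlapped none of these 3, lying below those of let-7 and miR-125 and above that of miR-26. It did overlap those of other families, so the total does not stand apart from all of them. Among these were miR-10, with 4 entries and a FC of 0.866 (0.855 to 0.877), and miR-200, with 3 entries and 0.890 (0.850 to 0.932). How many of the 104 sums overlapped it was not counted. The intervals compare these libraries and not the conditions.

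The miRNAs whose FC was nearest to that of the family total were sought among those above 200 rpm in both libraries, by the difference in log2 FC. They were miR-200b, an epithelial miRNA, with 1694 rpm in MO-Ct and 1497 rpm in MO-Tbx5a and a FC of 0.884 (0.815 to 0.958), miR-126, an endothelial miRNA, with 716 and 634 rpm and a FC of 0.886 (0.782 to 1.00), and miR-216a, known from the pancreas, with 925 and 820 rpm and a FC of 0.887 (0.794 to 0.989). This likeness rests on 2 libraries only, and 6 of the 102 other miRNAs had a FC inside the counting interval of the family total.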

How the data were processed

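Small RNA was sequenced from 1 library of embryos injected with MO-Tbx5a and 1 of embryos injected with MO-Ct. By the study's supplementary methods, GAIIx reads of 18 to 33 nt were kept after quality filtering and adaptor trimming, and unique sequences seen at least 30 times were annotated in CLC workbench against the zebrafish reference of miRBase, with up to 2 mismatches and 2 extra bases at each end. The authors deposited 1 rpm value per miRNA entry and library, scaled to the reads assigned to all listed entries.

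Read numbers were recovered as the smallest library total between 50000 and 3000000 at which all 173 values were whole reads within 0.005 rpm and summed to that total. Whole multiples of such a total fit too, so taking the smallest was a choice. It left some entries with fewer reads than the study's filter on occurrences would allow, and the true totals were not tested. FC is the deposited rpm of MO-Tbx5a over that of MO-Ct, with no pseudocount added. Read shares have 95% Clopper-Pearson intervals, from which those of FC follow, and the FC of a member over that of the other members has the exact conditional interval of an odds ratio. They cover counting error only, since PCR copies are not independent molecules. With 1 library per condition no test was made. The 1.8-fold and 200 rpm thresholds are the study's, while requiring 200 rpm in both libraries was set here.

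The members, lists and alternatives were chosen with earlier results of these data known. The miRNAs named are the members, the 3 miRNAs above 200 rpm in both libraries nearest to the family total in log2 FC, and the let-7, miR-26 and miR-125 families. miR-203 and miR-184, next to the family in summed level, were named after their values were seen. So were miR-430 and miR-10, which had higher sums, miR-200 and miR-20, given as other families, and the single tissue markers given by name. Other miRNAs with the miR-30 seed, and base differences between members, were not analysed here. The alternatives were scaling by the median ratio, by a trimmed mean of log ratios (trimming 30% of the ratios and 5% of the levels from either end) or without the 3 most abundant miRNAs, pseudocounts of 1 and 10 rpm, a 1.5-fold threshold, other member sets, and centring on 40 miRNAs of similar level. In 20 simulated library pairs of 173 entries both totals were recovered in 20, and 95.6% of FC intervals held the true value. Their reads were drawn under the counting error that the intervals assume, at totals near the recovered ones. The simulation thus checks the computation only. It held no PCR copies, no filter on occurrences and no variation between replicate libraries, so it cannot show how well the intervals or totals hold for the real libraries. Gene names and neighbours are those of RefSeq on GRCz12tu, without coordinates, since the deposited values have none. The tools were Python 3.11.15, with SciPy 1.17.1, NumPy 2.4.6, Matplotlib 3.10.9 and pandas 2.3.3.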

Additional observations from a re-analysis of the deposited data

How the results depend on the processing

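No paired analysis was possible because there was only 1 library of each kind, so that no replicate could be left out either. The family total, 0.883 as deposited, had a FC of 0.971 when scaled to the median ratio, 0.994 when scaled to the trimmed mean and 0.973 when the 3 most abundant miRNAs were left out. In the same order miR-30e had 0.982, 1.01 and 0.984, miR-30d had 0.991, 1.02 and 0.994, miR-30a had 0.755, 0.773 and 0.757, and miR-30c had 1.09, 1.11 and 1.09. miR-30b had 0.790, 0.809 and 0.792, each inside its deposited counting interval. With the trimmed mean miR-30e and miR-30d thus crossed to above 1. These shifts follow from the common factor that each scaling applies to all miRNAs. Centring on 40 miRNAs of similar level, chosen after the data were seen, used a factor of its own for each member. It gave 0.975 for miR-30e, 0.992 for miR-30d, 0.724 for miR-30a, 1.04 for miR-30c and 0.854 for miR-30b, and the cause was not tested. The factor of miR-30b, 0.841, was the lowest, and miR-30b lay nearer to miR-30e and miR-30d on that scale. The counting interval of miR-30b as deposited, 0.607 to 0.849, reached above this factor. With the factor taken as fixed, miR-30b was thus not below 1 beyond counting error on that scale. The pseudocounts kept every FC within its counting interval. The count of members past 1.8-fold was 0 under every alternative run, 1.5-fold included. As 0 members were under 200 rpm, leaving such members out changed neither the total nor any share, and that alternative is no check. Depth limits miR-30b most, whose 193 reads in MO-Tbx5a gave the widest interval.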
